A study of Mus musculus with 29 samples.

Results

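The IL-6 family of cytokines was followed through 10 mouse genes, chosen by gene symbol: the cytokine genes Il6, Il11, Lif and Osm, the receptor genes Il6ra, Il11ra1, Il6st and Osmr, the transcription factor gene Stat3, and Socs3, whose product restrains the pathway. All 10 were found in the count tables, among 47357 gene identifiers that the crypt, tissue and organoid tables share. RNA was sequenced in 29 libraries of 8 groups from C57BL/6 mice or their cells. Crypts came from the small intestine of mice aged 52 weeks, 4 libraries with the genotype H2BdIEC and 4 from H2B flox/flox controls. The tissue set held tumors of 4 H2B/p53dIEC mice, non-tumor tissue beside the tumor of the same 4 mice, and non-tumor tissue of 4 H2B/p53flox/flox mice, called control tissue here although its tissue label, like that of the adjacent samples, reads adjacent normal tissue. Intestinal organoids, which are epithelial cells grown as small three-dimensional cultures, came in 3 libraries each of H2BdIEC, H2B/p53dIEC (H2Bp53dIEC here) and controls that are titled as wild type but carry the flox/flox genotype label for H2B and p53. The series' design text names floxed H2B alone for the organoid controls, so whether they carry floxed p53 is unsettled. The titles of the H2BdIEC and control organoids share a prefix and letters that those of H2Bp53dIEC lack, so in both H2Bp53dIEC comparisons genotype cannot be told apart from that title group. H2B was read as Rnaseh2b, a subunit gene of ribonuclease H2, and p53 as Trp53, and dIEC as deletion in intestinal epithelial cells. The labels used here do not name the Cre line, give no age for the tissue mice and do not say how many animals the organoids came from. Tumor and adjacent samples are whole tissue, in which cells other than epithelium keep both genes.

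IL-6 and IL-11 each bind a receptor of their own, encoded by Il6ra and Il11ra1, and then the shared signalling receptor gp130, encoded by Il6st. Leukaemia inhibitory factor (Lif) signals through gp130 paired with the LIF receptor, and oncostatin M (Osm) in the mouse mainly through gp130 paired with the receptor encoded by Osmr. Janus kinases bound to these receptors phosphorylate STAT3, which enters the nucleus and induces genes of inflammation, survival and repair, among them Socs3, whose product binds gp130 and the kinases and ends the signal. In the intestine the family is known for epithelial repair after injury and for its part in tumors that arise with inflammation. RNA levels do not show STAT3 phosphorylation, which was not measured in these libraries.

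The promoters of the genes on which the results turn are shown because the 3 cytokine genes Il6, Il11 and Lif rose in tumors and because Socs3 holds the one STAT motif found. RefSeq start sites on GRCm38.p6 gave 300-base windows (250 bases before to 50 after the start) for 9 of the 10 genes, 11 windows in all, since Il11 and Il11ra1 have a pair of start sites each. Osm has no window. Each line gives the 250 bases before the start, 5′ to 3′ on the strand of the gene, at chr5:30012864-30013113 (+ strand) for Il6, chr7:4778142-4778391 (− strand) for the inner start site of Il11, chr11:4257318-4257567 (+ strand) for Lif and chr11:117969367-117969616 (− strand) for Socs3. Capitals mark a STAT motif (TTCNNNGAA), an AP-1 motif (TGANTCA) or an NF-kB motif (GGNNTTTCC), searched on both strands, with no overlap between matches.
Il6: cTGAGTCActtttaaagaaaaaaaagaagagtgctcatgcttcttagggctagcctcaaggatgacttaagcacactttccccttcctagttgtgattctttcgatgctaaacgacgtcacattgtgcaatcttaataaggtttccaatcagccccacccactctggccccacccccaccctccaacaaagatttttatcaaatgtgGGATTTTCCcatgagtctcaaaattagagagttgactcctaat
Il11: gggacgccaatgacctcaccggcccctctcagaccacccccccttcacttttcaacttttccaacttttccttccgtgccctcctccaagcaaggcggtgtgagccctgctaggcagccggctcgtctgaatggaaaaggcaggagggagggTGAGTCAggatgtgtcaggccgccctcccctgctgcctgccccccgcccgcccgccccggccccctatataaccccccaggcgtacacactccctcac
Lif: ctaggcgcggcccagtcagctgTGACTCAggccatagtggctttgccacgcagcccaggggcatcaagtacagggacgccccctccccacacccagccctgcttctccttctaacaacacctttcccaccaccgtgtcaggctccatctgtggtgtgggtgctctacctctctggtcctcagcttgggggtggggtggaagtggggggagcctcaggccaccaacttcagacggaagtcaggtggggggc
Socs3: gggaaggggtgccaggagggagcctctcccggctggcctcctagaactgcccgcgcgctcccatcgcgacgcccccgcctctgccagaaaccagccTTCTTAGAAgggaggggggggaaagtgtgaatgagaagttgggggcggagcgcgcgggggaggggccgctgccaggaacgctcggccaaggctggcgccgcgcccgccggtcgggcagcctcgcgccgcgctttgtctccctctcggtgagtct
The Il6 window held an AP-1 motif that starts at base −249 and an NF-kB motif that starts at −43. The windows of Il11 and Lif held an AP-1 motif at −98 and −228, and that of Osmr held one that starts 3 bases after the start base. In Socs3 the STAT motif TTCTTAGAA starts at −154, and no other window of these genes held one. Of all 32851 RefSeq windows of this length, 8.3% held the STAT motif, 7.81% the AP-1 motif and 5.82% the NF-kB motif, against 1, 4 and 1 of the 11 windows here. A match is a run of letters and not a measured binding site.

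In GENCODE M21 on GRCm38 the cytokine genes lie at chr5:30013114-30019981 (Il6, ENSMUSG00000025746), chr7:4772373-4782859 (Il11, ENSMUSG00000004371), chr11:4257557-4272514 (Lif, ENSMUSG00000034394) and chr11:4236420-4241026 (Osm, ENSMUSG00000058755). Lif and Osm are thus neighbours on chromosome 11. The receptor genes lie at chr3:89864059-89913196 (Il6ra, ENSMUSG00000027947), chr4:41699989-41769474 (Il11ra1, ENSMUSG00000073889), chr13:112464070-112510086 (Il6st, ENSMUSG00000021756) and chr15:6813577-6874969 (Osmr, ENSMUSG00000022146). Stat3 lies at chr11:100885098-100939540 (ENSMUSG00000004040), where its 3′ end overlaps Stat5a, and Socs3 at chr11:117966079-117970047 (ENSMUSG00000053113). Counts are of reads over all exons of a gene.

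Depth was 13219451 to 41504298 gene counts in 27 of the 29 libraries. The exceptions were control tissue 1320 with 401365, where 3 counts equal 8.03 CPM (counts per 1000000 counts of a library after scaling), and H2BdIEC organoids A with 5774771. The deleted genes followed the labels: Rnaseh2b lay between 2.13 and 2.71 CPM in H2BdIEC crypts and between 6.87 and 14.4 CPM in control crypts. In tissue it lay between 2.53 and 6.2 CPM in tumors, 2.49 and 5.43 in adjacent and 12.8 and 24.1 in control tissue, and in organoids between 4.97 and 7.05 CPM in H2BdIEC, 1.08 and 2.15 in H2Bp53dIEC and 14.8 and 18.3 in controls. Trp53 lay between 12.6 and 29.9 CPM in tumors, 13.7 and 27.8 in adjacent and 39.1 and 49.6 in control tissue. In organoids it lay between 9.96 and 11.7 CPM in H2Bp53dIEC, 78.3 and 110 in H2BdIEC and 98.3 and 115 in controls. Epithelial markers (8 genes) summed to 9374.9 to 11840.8 CPM in crypts and 6221.8 to 7202.5 CPM in organoids. Adjacent sample 1323 stood apart from the other adjacent samples: its distal small-intestine markers summed to 732 CPM, against 9662.6 to 12163.6 in the other 3. CPM here is scaled by TMM within each set. With control 1320 and adjacent 1323 both left out, 5 of the 10 genes were called in tumors against adjacent tissue (Osmr was lost, log2 fold change 0.95), 7 in tumors against control tissue and 0 in adjacent against control tissue, against 6, 7 and 0 with all libraries. Levels are CPM unless a fold or a log2 difference is named, and a ± gives the SD where it follows CPM and the SE where it follows a log2 fold change.

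The comparison of tumors with adjacent tissue of the same mice asks how the family differs between a tumor and the wall beside it. Of the 10 genes, 6 rose in tumors and 0 fell, by edgeR's quasi-likelihood test with Benjamini-Hochberg adjustment over all 17666 genes tested, with an adjusted p under 0.05 as a change. No gene of the 10 fell at an unadjusted p under 0.05 either, and DESeq2 called 7 higher and 0 lower. Among all genes, 23.0% rose and 24.0% fell. The median log2 fold change was 1.14 over the 10 genes and 0.00 over all genes. The genes that rose were the cytokine genes Il6, Il11, Lif and Osm and the receptor genes Il11ra1 and Osmr, while Il6ra, Il6st, Stat3 and Socs3 did not pass the test. In 4 of the 10 (Il6, Il11, Osm and Il11ra1) every tumor was above every adjacent sample, as in 19.6% of all genes.

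Il6, the founding cytokine of the family, had 29.6, 6.66, 66.5 and 36.4 CPM in the tumors of mice 1319, 1322, 1323 and 1349, against 0.368, 0.4, 0.262 and 0.18 CPM in adjacent tissue of the same mice in that order. Every tumor lay far above every adjacent sample, and the tumor of mouse 1322 was the lowest. The mean was 34.8 ± 24.7 CPM in tumors and 0.302 ± 0.101 CPM in adjacent tissue (SD, n = 4 each), 115-fold apart, with a log2 fold change of 6.80 ± 0.65 (edgeR adjusted p = 1.94e-05). Within a mouse the tumor held 16.7-fold (1322) to 253-fold (1323) the adjacent level. The adjacent values rest on 4 to 13 reads a library.

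Il11, a cytokine made by stromal cells in many tissues, had 77.7, 23.1, 25.8 and 74.8 CPM in tumors 1319, 1322, 1323 and 1349, against 0.598, 0.523, 1.15 and 0.899 CPM in adjacent tissue of those mice. All tumors were above all adjacent samples, and the order among tumors differed from that of Il6: mice 1319 and 1349 were high and 1322 and 1323 low. The mean was 50.3 ± 29.9 CPM in tumors and 0.793 ± 0.29 CPM in adjacent tissue (SD, n = 4 each), a log2 fold change of 6.00 ± 0.49 (edgeR adjusted p = 7.19e-06). The ratio within a mouse ran from 22.4 in 1323 to 130 in 1319.

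Osm, a cytokine made mainly by myeloid cells, had 18.7, 9.63, 48.8 and 22 CPM in tumors 1319, 1322, 1323 and 1349, against 0.69, 0.615, 0.262 and 0.0899 CPM in adjacent tissue of those mice. As for Il6, every tumor was above every adjacent sample, tumor 1323 was the highest and tumor 1322 the lowest. The mean was 24.8 ± 16.9 CPM in tumors and 0.414 ± 0.285 CPM in adjacent tissue (SD, n = 4 each), a log2 fold change of 5.86 ± 0.68 (edgeR adjusted p = 5.18e-05). The adjacent libraries held 2 to 20 reads of Osm.

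Lif, known for keeping stem cells in culture, had 21.2, 8.21, 35.2 and 27.7 CPM in tumors 1319, 1322, 1323 and 1349, against 4.23, 4.98, 8.71 and 6.92 CPM in adjacent tissue. The groups overlapped, since tumor 1322 was below adjacent sample 1323, but each tumor was above the adjacent sample of its own mouse, by 1.65-fold to 5.01-fold. The mean was 23.1 ± 11.5 CPM in tumors and 6.21 ± 2.01 CPM in adjacent tissue (SD, n = 4 each), a log2 fold change of 1.9 ± 0.38 (edgeR adjusted p = 0.0017). Lif was at 3.31 CPM or above in every library of the series.

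**Figure D1:**
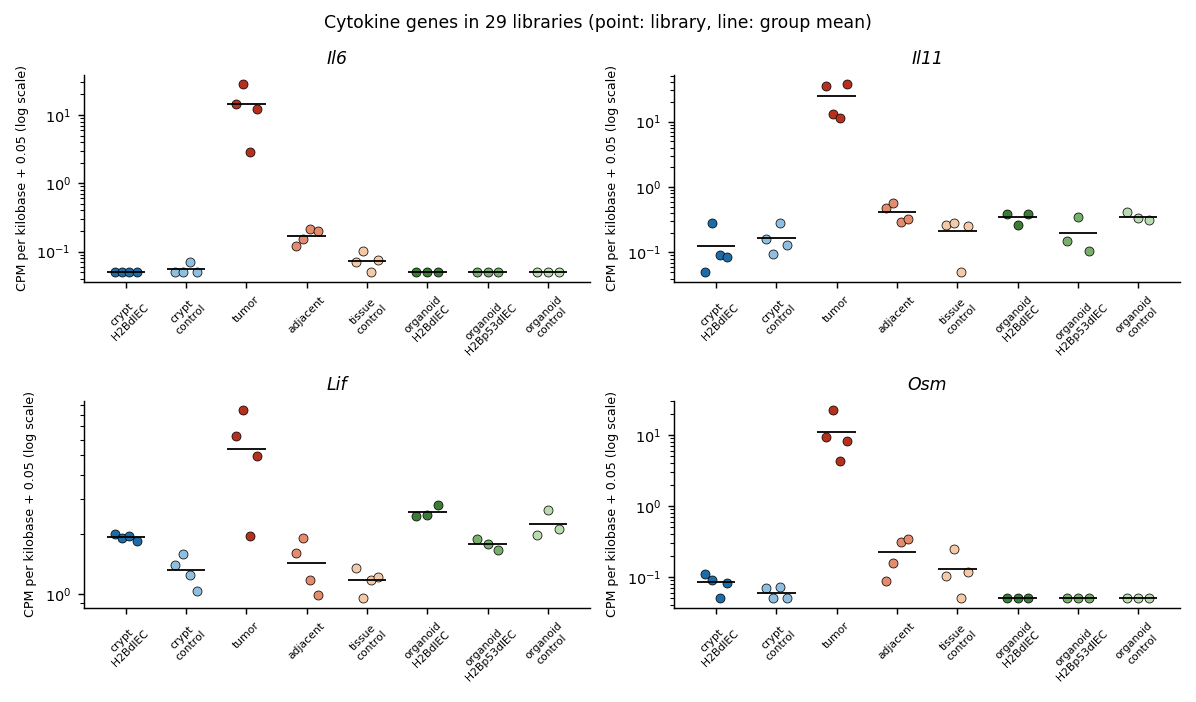
Level of the 4 cytokine genes in each of the 29 libraries, in CPM per kilobase of exon plus 0.05 on a log axis, scaled over all libraries together; points are libraries and lines are group means. Tumors stand alone for Il6, Il11 and Osm (means of 14.5, 24.2 and 11.1 per kilobase), while the means of Lif lie between 1.12 and 5.36 in the 8 groups.

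The receptor genes moved less than the cytokine genes and not together. Il11ra1, the receptor chain for IL-11, had 22.4, 51.3, 27 and 22 CPM in tumors 1319, 1322, 1323 and 1349, against 17.9, 13, 12.2 and 10.1 CPM in adjacent tissue. Every tumor was above every adjacent sample, and tumor 1322, lowest for Il6 and Il11, was the highest. The mean was 30.7 ± 13.9 CPM in tumors and 13.3 ± 3.31 CPM in adjacent tissue (SD, n = 4 each), a log2 fold change of 1.21 ± 0.28 (edgeR adjusted p = 0.00424). Il11ra1 has a near-identical copy, Il11ra2, listed with 0 reads in the crypt, tissue and organoid tables, and its annotated span overlaps 6 other genes, so its level is less certain than that of the others.

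Osmr, the oncostatin M receptor chain, had 31.2, 21.2, 72.4 and 22.7 CPM in tumors 1319, 1322, 1323 and 1349, against 24.2, 14.7, 17.7 and 18.2 CPM in adjacent tissue. The groups overlapped, although all 4 tumors were above the adjacent sample of their own mouse, 3 of them by 1.25-fold to 1.45-fold and tumor 1323 by 4.09-fold. The mean was 36.8 ± 24.1 CPM in tumors and 18.7 ± 4.01 CPM in adjacent tissue (SD, n = 4 each), a log2 fold change of 0.98 ± 0.34 (edgeR adjusted p = 0.0325). With mouse as a block the log2 fold change was 0.77 and the adjusted p was 0.119, and without tumor 1323 it was 0.42 with an adjusted p of 0.123, so the call ended in both fits. It also ended without adjacent 1322, 1323 or 1349 and in a fit of these groups alone (adjusted p 0.064 to 0.0849).

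Il6ra and Il6st did not pass the test. Il6ra, the IL-6 receptor chain, had 12.7, 8.29, 25.7 and 10.6 CPM in tumors 1319, 1322, 1323 and 1349, against 28.3, 16.4, 12.9 and 12.7 CPM in adjacent tissue. The groups overlapped, with a log2 fold change of −0.29 ± 0.36 (edgeR adjusted p = 0.529), and 1 of 4 mice (1323) had the higher level in its tumor. Il6st, which encodes gp130, had 95.2, 85.1, 125 and 67.4 CPM in those tumors, against 112, 116, 111 and 98.8 CPM in adjacent tissue, a log2 fold change of −0.23 ± 0.17 (edgeR adjusted p = 0.284). Mouse 1323 was again the one with the higher level in its tumor, and without that tumor Il6st fell by 0.41 on the log2 scale (edgeR adjusted p = 0.047).

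Stat3 RNA was nearly level between the groups. It had 247, 251, 278 and 223 CPM in tumors 1319, 1322, 1323 and 1349, against 242, 222, 242 and 271 CPM in adjacent tissue, with a log2 fold change of 0.03 ± 0.17 (edgeR adjusted p = 0.892). Socs3, the STAT3-induced inhibitor, had 103, 61.9, 249 and 102 CPM in tumors, against 47.5, 43, 87.1 and 67.9 CPM in adjacent tissue of the same mice. All 4 tumors were above the adjacent sample of their own mouse, by 1.44-fold to 2.86-fold, while the groups overlapped. The log2 fold change of 1.07 ± 0.47 did not pass the test (edgeR adjusted p = 0.076), and it passed with mouse as a block (0.91, edgeR adjusted p = 0.0244), without tumor 1322 (1.31, edgeR adjusted p = 0.0396) and in DESeq2 (1.12, adjusted p = 0.0417).

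**Figure D2:**
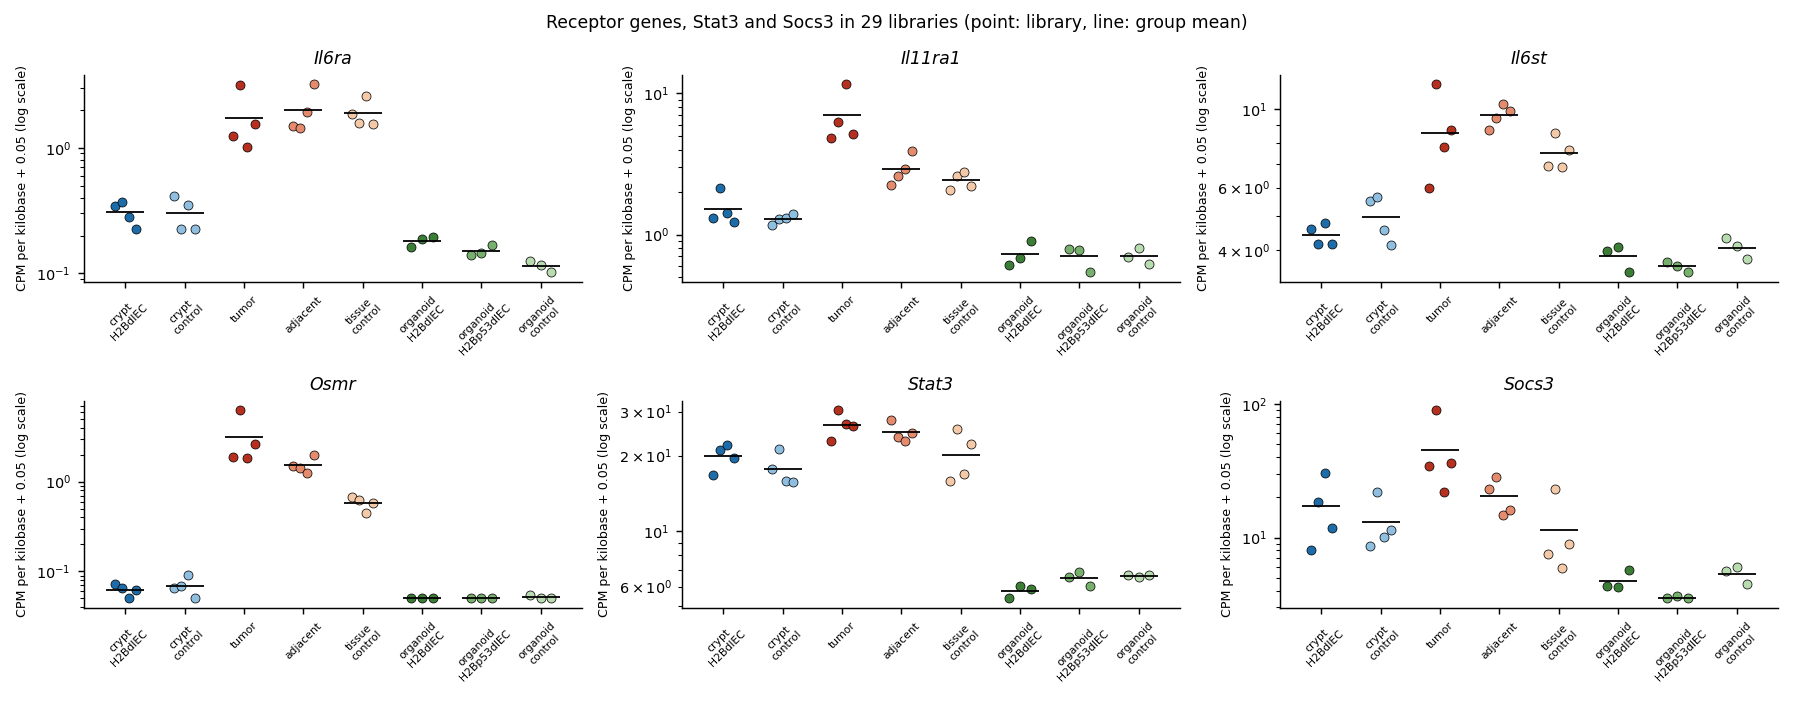
Level of the 4 receptor genes, Stat3 and Socs3 in each of the 29 libraries, in CPM per kilobase of exon plus 0.05 on a log axis, scaled over all libraries together; points are libraries and lines are group means. The means of Osmr lie between 0.532 and 3.1 in the tissue groups and at or near 0 in crypts and organoids, and those of Stat3 at 5.72 to 6.59 in organoids against 17.6 to 26.5 elsewhere.

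Set against control tissue of floxed mice, the tumors showed 7 of the 10 genes higher and 0 lower (0 lower also at an unadjusted p under 0.05 and in DESeq2), where 28.6% of all genes rose and 26.1% fell. The tumor libraries are the same as in the comparison with adjacent tissue. Control tissue held 0.0512, 0.129, 0 and 0.0625 CPM of Il6 in mice 1315, 1316, 1320 and 1321, which is 7 reads in all, and 1320 was too shallow to show such a level. The log2 fold change of Il6 in tumors was 8.76 ± 0.82 (edgeR adjusted p = 9.56e-06). Il11 averaged 0.353 ± 0.238 CPM in control tissue (SD, n = 4), and its log2 fold change in tumors was 6.75 ± 0.55 (edgeR adjusted p = 4.9e-06). Osm averaged 0.189 ± 0.201 CPM in control tissue (SD, n = 4), with a log2 fold change of 6.69 ± 0.78 in tumors (edgeR adjusted p = 3.38e-05). Each of these 3 cytokine genes was higher in every tumor than in any control library, as 27.5% of all genes were.

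Lif, Il11ra1 and Osmr were also higher in every tumor than in any control library. In control 1320 this rests on 2 reads of Lif, 5 of Il11ra1 and 2 of Osmr. There 3 counts equal 8.03 CPM, so that library cannot place Lif below tumor 1322, which had 8.21 CPM. Lif had 5.78, 4.08, 5.35 and 5.25 CPM in control tissue 1315, 1316, 1320 and 1321, and its log2 fold change in tumors was 2.19 ± 0.41 (edgeR adjusted p = 0.000766). Il11ra1 averaged 11.2 ± 1.9 CPM in control tissue (SD, n = 4), with a log2 fold change of 1.52 ± 0.30 in tumors (edgeR adjusted p = 0.00109). Osmr had 7.7, 7.21, 5.35 and 6.63 CPM in control tissue, and its log2 fold change in tumors was 2.39 ± 0.38 (edgeR adjusted p = 0.000241). Socs3 had 22, 69.4, 18.7 and 26.7 CPM in control tissue, where library 1316 overlapped the tumors, and a log2 fold change of 1.83 ± 0.49 in tumors (edgeR adjusted p = 0.00702). Stat3 averaged 201 ± 45.1 CPM, Il6st 86.5 ± 9.07 CPM and Il6ra 16.7 ± 5.03 CPM in control tissue (SD, n = 4 each), and none of these 3 passed the test (edgeR adjusted p = 0.139, 0.636 and 0.826).

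Adjacent tissue of tumor-bearing mice against control tissue gave 0 calls among the 10 genes by edgeR, where 0.792% of all genes were called higher (140) and 0.277% lower (49). Those counts over all genes turn on single libraries: with 1 library left out they ran between 0 and 161 higher and between 0 and 62 lower, with 0 and 0 without control 1321 and 2 and 0 without control 1316. At an unadjusted p under 0.05, 2 of the 10 were higher (Il6 and Osmr). DESeq2 called 1 (Osmr), where it called 655 of all 17666 tested genes higher. Osmr had 24.2, 14.7, 17.7 and 18.2 CPM in adjacent tissue of mice 1319, 1322, 1323 and 1349, against the 5.35 to 7.7 CPM of control tissue given above. Every adjacent sample was above every control sample, of which 1320 held 2 reads of Osmr. The log2 fold change of 1.41 ± 0.37 missed the threshold (edgeR adjusted p = 0.0815), and it passed in DESeq2 (1.44, adjusted p = 0.011) and in an edgeR fit of these groups alone (1.47, adjusted p = 0.0185).

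In 4 of the 10 genes (Il6, Il11, Il6st and Osmr) every adjacent library was above every control library, against 8.22% of all genes. Il6 averaged 0.302 ± 0.101 CPM in adjacent tissue and 0.0606 ± 0.053 CPM in control tissue (SD, n = 4 each), a log2 fold change of 1.96 ± 0.86 that missed the threshold (edgeR adjusted p = 0.263). Il6st averaged 110 ± 7.48 CPM in adjacent tissue and 86.5 ± 9.07 CPM in control tissue (SD, n = 4 each), a log2 fold change of 0.34 ± 0.18 (edgeR adjusted p = 0.345). For Il11 the separation rests on 12 to 18 reads in 3 control libraries and on the shallow library 1320, which held none. For Il6st the lowest adjacent library (1349) and the highest control library (1316) both read 98.8 CPM at the precision given here. For Il6 the same libraries were the closest, with 4 reads in adjacent 1349 and 3 in control 1316, and control 1320 was too shallow to show such a level. Adjacent and control tissue also differed in region markers: proximal small-intestine genes summed to 462 to 44426.4 CPM in adjacent tissue and 147 to 230 CPM in control tissue. Distal genes summed to 732 to 12163.6 CPM in adjacent tissue and 9961.8 to 15944.4 CPM in control tissue. The part of that difference in these values was not tested.

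**Figure D3:**
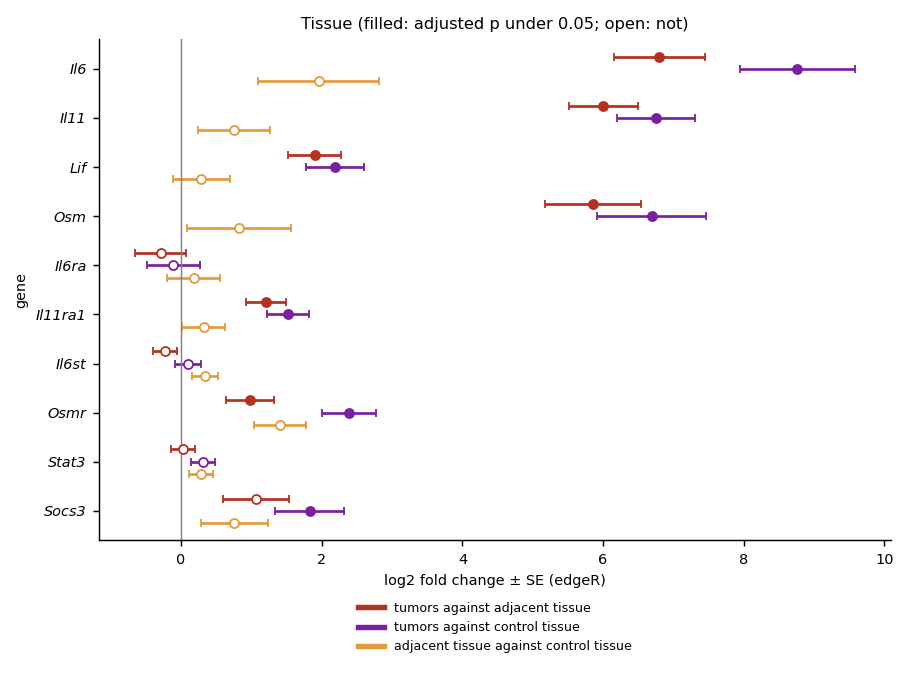
Log2 fold change (x axis) of the 10 genes (rows) in the 3 tissue comparisons, with the SE as bars; filled points passed an adjusted p under 0.05. Il6, Il11 and Osm lie at 5.86 or above in both tumor comparisons, and Stat3, Il6st and Il6ra lie between −0.29 and 0.34 in all 3.

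Bulk tissue cannot tell more RNA per cell from more cells of a type, so the markers of cell types are given beside these results. The fibroblast list (8 genes) summed to 2686.9, 1299.2, 10647.3 and 3166.3 CPM in tumors 1319, 1322, 1323 and 1349, against 275 to 912 CPM in adjacent and 476 to 806 CPM in control tissue. Against adjacent tissue 5 of its 8 genes rose and 1 fell, where 23.0% of all genes rose and 24.0% fell. Most of the tumor sum was collagen RNA, with means of 1400.3 (Col1a1), 1059.7 (Col1a2) and 1324.9 CPM (Col3a1). Pdgfra averaged 67.2 CPM in tumors and 66.7 CPM in adjacent tissue, and Dpt 9.32 and 36.4 CPM. Dcn, Lum and Pdpn had higher means in tumors. The macrophage and monocyte list (8 genes) summed to 612, 957, 1730.5 and 883 CPM in those tumors, against 153 to 803 CPM in adjacent and 209 to 377 CPM in control tissue, and 4 of 8 genes rose against adjacent tissue.

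The neutrophil list (6 genes) summed to 460, 184, 1652.5 and 332 CPM in tumors 1319, 1322, 1323 and 1349, against 42.8 to 187 CPM in adjacent and 0 to 4.64 CPM in control tissue. All 6 rose against adjacent tissue, and 3 of 6 rose in adjacent against control tissue, a count that was 0 without control 1316 or 1321 and 1 without control 1315. Tumor 1323 was the highest and 1322 the lowest for the fibroblast, neutrophil, endothelial and smooth muscle sums, the same mice as for Il6, Osm, Lif and Socs3. Sums of other cell types were ordered otherwise. The macrophage and monocyte sum was highest in 1323 but lowest in 1319 (612 CPM, against 957 CPM in 1322). The epithelial sum was highest in 1349, and the mast cell, T cell and B and plasma cell sums in 1319. Il11 was high in 1319 and 1349. The endothelial list (6 genes) summed to 122 to 333 CPM in tumors, 129 to 204 CPM in adjacent and 53.4 to 82.7 CPM in control tissue. The epithelial sum was lower, with 6071.8 to 10920.7 CPM in tumors, 15329.4 to 21709.9 CPM in adjacent and 18528.5 to 22373.0 CPM in control tissue. Against adjacent tissue 6 of the 8 epithelial markers fell and 1 rose, where 24.0% of all genes fell and 23.0% rose. The 1 that rose was Krt18, with a mean of 1311.4 CPM in tumors and 428 CPM in adjacent tissue. Smooth muscle markers summed to 282 to 809 CPM in tumors and 2825.5 to 4223.2 CPM in adjacent tissue, and T cell markers to 7.81 to 16.5 CPM in tumors and 9.71 to 72.2 CPM in adjacent tissue. Of the 6 mast cell markers 5 rose and 1 fell against adjacent tissue (median log2 fold change 3.90), although their sum was 31.1 to 66.9 CPM in tumors, 38.4 to 46.4 CPM in adjacent and 36.8 to 54.4 CPM in control tissue, most of it Kit in adjacent and control tissue. The B and plasma cell list (6 genes) summed to 26.3 to 615 CPM in tumors, 275 to 752 CPM in adjacent and 331 to 960 CPM in control tissue, and 3 of 6 fell against adjacent tissue. Region markers moved as well: the 5 distal small-intestine genes summed to 236 to 334 CPM in tumors, below every adjacent and control sample, and all 5 fell against adjacent tissue (median log2 fold change −5.43). Proximal genes summed to 415 to 8047.1 CPM in tumors and 462 to 44426.4 CPM in adjacent tissue, and 2 of 8 rose. Acinar pancreas markers (8 genes) summed to 46.1 to 242 CPM in tumors, 8.64 to 18.1 CPM in adjacent and 0 to 6.23 CPM in control tissue. Of these 8 markers 1 could be tested, and it rose against adjacent tissue. The part of these cell types and regions in the levels of the cytokine genes was not tested.

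**Figure D4:**
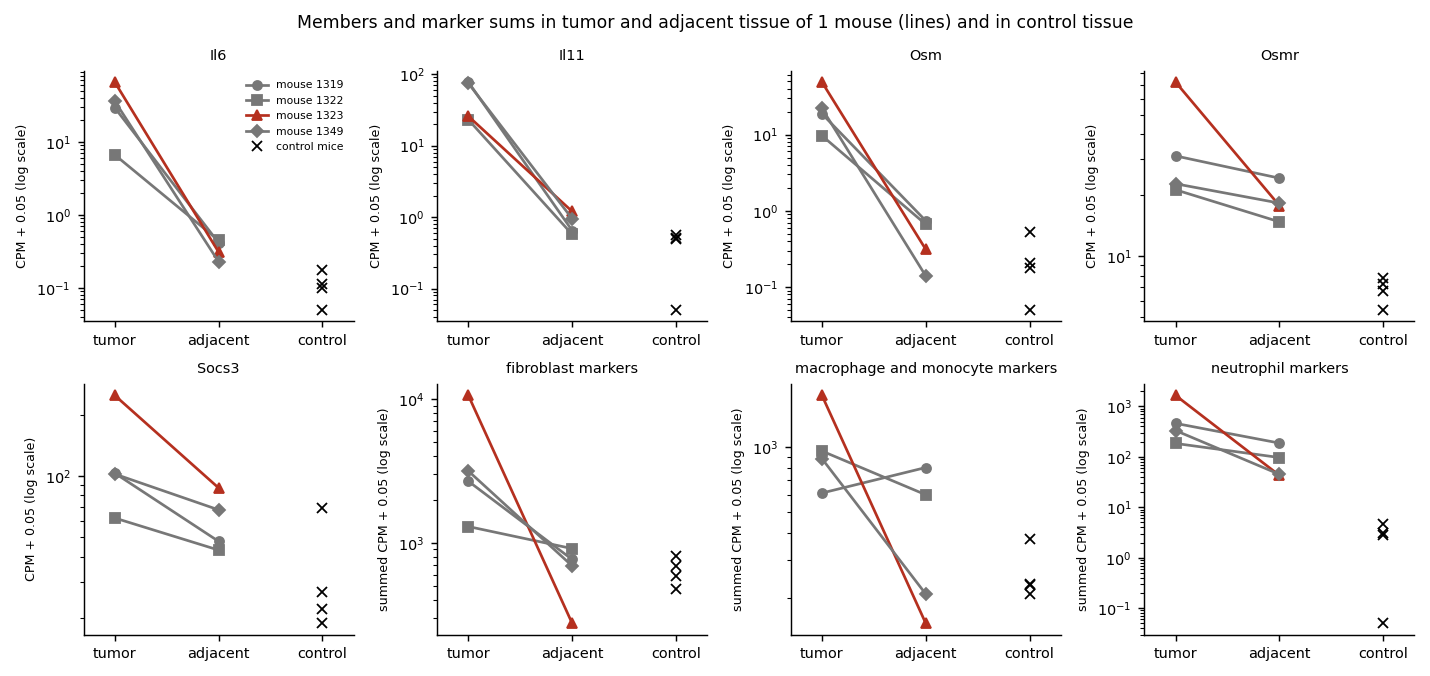
Level of 5 members of the family (CPM) and summed level of 3 marker lists, each plus 0.05 on a log axis; a line joins the tumor and the adjacent tissue of 1 mouse, crosses are the 4 control mice, and mouse 1323 is drawn in red. Tumor 1323 is the highest for Il6, Osm, Osmr and Socs3 and for all 3 marker sums, and not for Il11, where it has 25.8 CPM against 77.7 in tumor 1319.

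Other genes of the pathway in tumors were read from 8 lists, whose counts stand beside 23.0% of all genes higher and 24.0% lower against adjacent tissue, and 28.6% and 26.1% against control tissue. Among the other cytokines that act through gp130, Ctf1, cardiotrophin 1, averaged 5.01 ± 2.01 CPM in tumors and 1.91 ± 0.17 CPM in adjacent tissue (SD, n = 4 each), and it rose by 1.39 ± 0.38 on the log2 scale (edgeR adjusted p = 0.00985). Against control tissue Ctf1, Clcf1 and Ebi3 were among those that rose. Of the other receptors of the family 3 of 5 could be tested. Against adjacent tissue none passed, at an unadjusted p under 0.05 and in DESeq2 included. Against control tissue edgeR called 0, while 1 was higher at an unadjusted p under 0.05 and 1 in DESeq2. With 1 library left out edgeR called 0 to 2 of them higher against control tissue. Lifr, the LIF receptor chain, averaged 14 ± 3.1 CPM in tumors and 13.5 ± 4.93 CPM in adjacent tissue (SD, n = 4 each).

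Of the 4 Janus kinase genes 3 fell and 0 rose against adjacent tissue. Jak2 averaged 72.4 ± 20.4 CPM in tumors and 163 ± 33.6 CPM in adjacent tissue (SD, n = 4 each), a log2 fold change of −1.17 ± 0.21 (edgeR adjusted p = 0.000905). Jak1, the kinase on which gp130 signalling chiefly depends, averaged 109 ± 18.9 CPM in tumors and 152 ± 15.3 CPM in adjacent tissue (SD, n = 4 each; log2 fold change −0.48 ± 0.15, edgeR adjusted p = 0.0186), and Tyk2 fell too. The same 3 kinases fell against control tissue, where the tumor libraries are shared. Of the 4 genes of receptor shedding, by which the IL-6 receptor is released from the cell surface, 3 rose against adjacent tissue: Adam10, a protease, averaged 223 ± 17.5 CPM in tumors and 131 ± 21.3 CPM in adjacent tissue (SD, n = 4 each; edgeR adjusted p = 0.00114), and Rhbdf2 and Adam17 rose by 0.74 and 0.70 on the log2 scale.

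Among other cytokines and receptors that activate STAT3, 9 of 10 genes were tested against adjacent tissue, 3 rose and 3 fell. Csf3, the neutrophil growth factor, had a mean of 25.2 ± 18.5 CPM in tumors and 0.508 ± 0.22 CPM in adjacent tissue (SD, n = 4 each), a log2 fold change of 5.60 ± 0.63 (edgeR adjusted p = 0.00013). Il10, an anti-inflammatory cytokine, averaged 2.53 ± 1.67 CPM in tumors and 0.177 ± 0.131 CPM in adjacent tissue (SD, n = 4 each; edgeR adjusted p = 0.0012). Among the 3 that fell was Il22ra1, the epithelial chain of the IL-22 receptor, which averaged 13.4 ± 5.93 CPM in tumors and 82.4 ± 12.4 CPM in adjacent tissue (SD, n = 4 each; edgeR adjusted p = 6.26e-05). Another was Il22ra2, the soluble decoy receptor for IL-22, which averaged 0.203 ± 0.193 CPM in tumors and 7.44 ± 8.13 CPM in adjacent tissue (SD, n = 4 each; edgeR adjusted p = 0.000303). Of the 6 other STAT genes, Stat4 rose by 1.92 and Stat6 fell by 0.48 on the log2 scale (edgeR adjusted p = 0.0156 and 0.02), and the Stat6 call ended without adjacent or tumor sample 1322. Of 16 negative regulators other than Socs3, 4 rose (Pias2, Ptprt, Ptpn2 and Socs5) and 2 fell (Socs4 and Pias1), with a median log2 fold change of −0.04, and 1 fell without tumor 1349. Against control tissue the receptor list had 4 higher and 3 lower, the other STATs 2 and 2, the negative regulators 5 and 3, and the shedding genes 2 higher (Rhbdf1 and Rhbdf2).

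A list of 36 genes known as STAT3 targets had 17 members higher and 6 lower in tumors than in adjacent tissue, where 23.0% of all genes rose and 24.0% fell. The median log2 fold change of the list was 1.08, against 0.00 for all genes. Lrg1, a secreted glycoprotein gene, averaged 356 ± 144 CPM in tumors and 19.7 ± 2.52 CPM in adjacent tissue (SD, n = 4 each), a log2 fold change of 4.17 ± 0.31 (edgeR adjusted p = 4.62e-06). Lbp, which binds bacterial lipopolysaccharide, averaged 82.4 ± 47.7 CPM in tumors and 6.17 ± 1.28 CPM in adjacent tissue (SD, n = 4 each; edgeR adjusted p = 5.06e-05). Muc1, a membrane mucin, and Lcn2, an iron-binding antimicrobial protein, rose by 3.77 and 4.53 on the log2 scale. The 6 that fell were Reg3b, an antimicrobial lectin of the small intestine, with Fgl2, Fos, Mcl1, Tnfrsf1a and Vegfa. Reg3b averaged 1151.5 ± 935 CPM in tumors and 7053.1 ± 4271.6 CPM in adjacent tissue (SD, n = 4 each), a log2 fold change of −2.61 ± 0.68 (edgeR adjusted p = 0.00779). Against control tissue 19 of the 36 rose and 5 fell, or 3 without control 1316, where 28.6% of all genes rose and 26.1% fell with all libraries. S100a8 and S100a9 of this list are also neutrophil markers.

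In adjacent against control tissue edgeR called 5 of the 36 targets higher and 0 lower, where it called 0.792% of all genes higher. DESeq2 called 11 higher and 0 lower, where it called 655 of all 17666 tested genes higher. At an unadjusted p under 0.05, 15 were higher and 0 lower, and the share of all genes at that threshold is not given here. The edgeR count was 0 without control 1321, 1 without control 1316, 2 without control 1315 and 3 without control 1320, while without 1 adjacent library it was 4 to 6. Lrg1 averaged 19.7 ± 2.52 CPM in adjacent tissue and 2.51 ± 0.827 CPM in control tissue (SD, n = 4 each), a log2 fold change of 2.99 ± 0.33 (edgeR adjusted p = 0.0116). Lcn2 averaged 59.4 ± 61.3 CPM in adjacent tissue and 2.55 ± 0.593 CPM in control tissue (SD, n = 4 each; edgeR adjusted p = 0.0292). S100a8, S100a9 and Timp1, an inhibitor of matrix proteases, were the other 3. Csf3, from the list of other STAT3-activating cytokines, had 0.315 to 0.719 CPM in adjacent tissue and no read in any control library. Its call was at the edge of the threshold (edgeR adjusted p = 0.0485) and ended with any 1 of the 8 libraries left out (adjusted p 0.0675 to 0.173).

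Crypts are preparations of epithelium, in which T cell markers were nevertheless at 15.6 to 77.6 CPM, against 7.81 to 16.5 CPM in tumors and 9.71 to 72.2 CPM in adjacent tissue. The question was whether loss of Rnaseh2b alone moved the genes at 52 weeks. Of the 10 genes, 6 passed the filter on low counts, 1 rose and 0 fell (edgeR; DESeq2 gave the same counts, and 0 fell at an unadjusted p under 0.05), where 5.16% of 14596 tested genes rose and 4.87% fell. Lif had 6.5, 6.37, 6.39 and 6.03 CPM in H2BdIEC crypts 1 to 4, against 4.52, 5.07, 4.06 and 3.31 CPM in control crypts 1 to 4. The groups did not overlap, as for 8.54% of all genes in this direction. The mean was 6.32 ± 0.202 CPM in H2BdIEC crypts and 4.24 ± 0.748 CPM in control crypts (SD, n = 4 each), a log2 fold change of 0.57 ± 0.16 at the edge of the threshold (edgeR adjusted p = 0.0498). Leaving out 1 library gave a log2 fold change of 0.48 to 0.67 and an adjusted p of 0.0316 to 0.135, and the call ended without any 1 of the 4 H2BdIEC libraries, without control 1, 3 or 4, and without the low-count filter (adjusted p = 0.0937).

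The other cytokine genes were at the limit of detection in crypts. Il6 had 0 reads in all 4 H2BdIEC libraries, and 1 read in 1 of 4 control libraries. Osm lay between 0 and 0.108 CPM in H2BdIEC crypts and between 0 and 0.0379 CPM in control crypts, and Il11 between 0 and 0.374 CPM in H2BdIEC and 0.072 and 0.379 CPM in control crypts. Osmr lay between 0 and 0.217 CPM in H2BdIEC and between 0 and 0.379 CPM in control crypts. None of these 4 passed the filter.

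Il6st and Stat3 were well expressed in crypts. Il6st had 38.6, 35.7, 40.5 and 35.2 CPM in H2BdIEC crypts, against 47.1, 47.2, 38.9 and 35 CPM in control crypts (log2 fold change −0.16 ± 0.11, edgeR adjusted p = 0.369). Stat3 had 122, 157, 163 and 143 CPM in H2BdIEC crypts, against 131, 155, 117 and 115 CPM in control crypts (log2 fold change 0.18 ± 0.13, edgeR adjusted p = 0.391). Socs3 was more variable, with 17.9, 41.8, 67.7 and 26.4 CPM in H2BdIEC crypts and 19.4, 48, 22.5 and 25.3 CPM in control crypts. The groups of all 3 genes overlapped. Il6ra and Il11ra1 had log2 fold changes of 0.01 ± 0.32 and 0.26 ± 0.20 (edgeR adjusted p = 0.992 and 0.426). Of the pathway lists, Stat2 and Rhbdf2 rose, and the negative regulators Ptprt and Socs6 fell. The call of Rhbdf2 held with H2BdIEC 1 or control 2 left out and ended without any 1 of the other 6 libraries, and that of Socs6 ended without H2BdIEC 2 or 4 or control 1, 2 or 3. Of the STAT3 targets 25 of 36 were tested and 0 were called (edgeR; 2 higher and 2 lower at an unadjusted p under 0.05, and 1 in DESeq2).

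Crypt groups also differed in depth, 15545059 to 18817537 gene counts in H2BdIEC and 23118463 to 25913155 in control libraries. Proximal markers summed to 12737.5 to 15798.9 CPM in H2BdIEC and 5711.8 to 12671.0 CPM in control crypts. Fibroblast markers summed to 12.1 to 31 CPM in H2BdIEC and 2.55 to 24.8 CPM in control crypts, and T cell markers to 25.3 to 77.6 CPM in H2BdIEC and 15.6 to 63.3 CPM in control crypts. Acinar pancreas markers (8 genes) summed to 17.8, 341, 22.3 and 20.3 CPM in H2BdIEC crypts 1 to 4, against 4.45 to 7.92 CPM in control crypts, where Prss1 and Prss2 had no read. Library H2BdIEC 2 stood apart, and every H2BdIEC library was above every control. Of the 5 of these markers that were tested, 0 were called by edgeR, 5 were higher at an unadjusted p under 0.05, and DESeq2 called 1. Without H2BdIEC 2 the log2 fold change of Lif was 0.58 (edgeR adjusted p = 0.0796). The part of the other differences in the Lif call was not tested.

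Organoids are cultures of epithelium. In them 4 of the 8 fibroblast markers were at 0 in every control library and 5 in every H2BdIEC and H2Bp53dIEC library. The macrophage markers Adgre1 and C1qb were at 0 in all 9 libraries. Others of that list were detected, with Cd14 at 2.49 to 6.47 CPM, and the list (8 genes) summed to 6.04 to 11.5 CPM. The same list summed to 8.8 to 23.2 CPM in crypts. Il6 and Osm had no read in any of the 9 libraries, and Osmr had 1 read, in control A. A count of 3 would equal 0.144 to 0.533 CPM in these libraries. Il11 lay between 0.144 and 0.901 CPM in all 9. The other 6 genes were detected in every library, with Lif at 8.5 to 14.4 CPM, and 7 of the 10 genes could be tested.

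In H2BdIEC against control organoids, 1 of the 7 tested genes rose and 0 fell (edgeR; at an unadjusted p under 0.05, 1 rose and 1 fell, and DESeq2 called 0), where 2.08% of 15701 tested genes rose and 1.97% fell. Il6ra had 1.24, 1.44 and 1.52 CPM in H2BdIEC organoids A, B and C, against 0.781, 0.671 and 0.536 CPM in control organoids. All H2BdIEC libraries were above all controls, as for 11.4% of all genes. The log2 fold change was 1.10 ± 0.28 (edgeR adjusted p = 0.0454). The call ended in DESeq2, without the low-count filter, in a fit of these groups alone and without any 1 of the libraries other than H2BdIEC A (adjusted p 0.0426 to 0.146 over the 6 libraries left out). Il6ra overlaps the antisense gene Gm42809, and whether counting used strand is not given in the sources used here. Stat3 had 65, 68.6 and 66.9 CPM in H2BdIEC organoids, against 76.4, 73.4 and 75.1 CPM in control organoids. All H2BdIEC libraries were below all controls, as for 10.6% of all genes, and the log2 fold change of −0.16 ± 0.07 did not pass the test (edgeR adjusted p = 0.199).

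H2Bp53dIEC organoids, in which Trp53 is lost as well, were set against H2BdIEC organoids. Rnaseh2b was also lower in H2Bp53dIEC organoids (1.08 to 2.15 CPM) than in H2BdIEC organoids (4.97 to 7.05 CPM), and the title group differs. The part of the Trp53 deletion therefore cannot be told apart from these. Of the 7 tested genes 2 fell and 0 rose (0 also at an unadjusted p under 0.05 and in DESeq2), where 15.4% of all genes fell and 13.9% rose. Lif had 9.6, 8.99 and 8.5 CPM in H2Bp53dIEC organoids, against 13.5, 12.8 and 14.4 CPM in H2BdIEC organoids. Socs3 had 12, 12.4 and 12.2 CPM in H2Bp53dIEC organoids, against 16, 14.5 and 19.6 CPM in H2BdIEC organoids. For both genes every H2Bp53dIEC library was below every H2BdIEC library, as for 22.7% of all genes; Il6ra was placed likewise, and Stat3 was above in every library, as for 23.0% of all genes. The log2 fold change was −0.59 ± 0.13 for Lif (edgeR adjusted p = 0.00586) and −0.46 ± 0.14 for Socs3 (edgeR adjusted p = 0.0278). The Socs3 call ended without H2BdIEC C or without any of the 3 H2Bp53dIEC libraries (adjusted p 0.0105 to 0.131 over the libraries left out).

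Against control organoids the same H2Bp53dIEC libraries showed 1 of 7 genes lower and 0 higher, where 16.6% of all genes fell and 16.7% rose. At an unadjusted p under 0.05, 2 were lower and 1 higher, and DESeq2 called 1 lower and 0 higher. Socs3 had 19.3, 20.5 and 15.2 CPM in control organoids A, B and C, all above the 12 to 12.4 CPM of H2Bp53dIEC organoids, and its log2 fold change was −0.59 ± 0.14 (edgeR adjusted p = 0.00524). In Lif and Il6st too every H2Bp53dIEC library was below every control, as in 27.3% of all genes, and in Il6ra every one was above, as in 27.2%. Lif had 10.2, 13.5 and 10.7 CPM in control organoids, and its log2 fold change of −0.35 ± 0.13 missed the threshold (edgeR adjusted p = 0.0518) and passed it without control A (−0.43, edgeR adjusted p = 0.0325). Il11 had 0.246, 0.739 and 0.144 CPM in H2Bp53dIEC organoids 1, 2 and 3, against 0.901, 0.719 and 0.655 CPM in control organoids. It was not called (edgeR adjusted p = 0.138) except without H2Bp53dIEC 2, where it fell by 1.88 on the log2 scale (edgeR adjusted p = 0.0191). Stat3 had 74.3, 77.3 and 69.5 CPM in H2Bp53dIEC organoids, with a log2 fold change of −0.02 ± 0.07 against controls (edgeR adjusted p = 0.809). Il6st lay between 45.7 and 57.2 CPM in all 9 organoid libraries and Il11ra1 between 2.67 and 4.55 CPM, and neither was called in any organoid comparison.

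**Figure D5:**
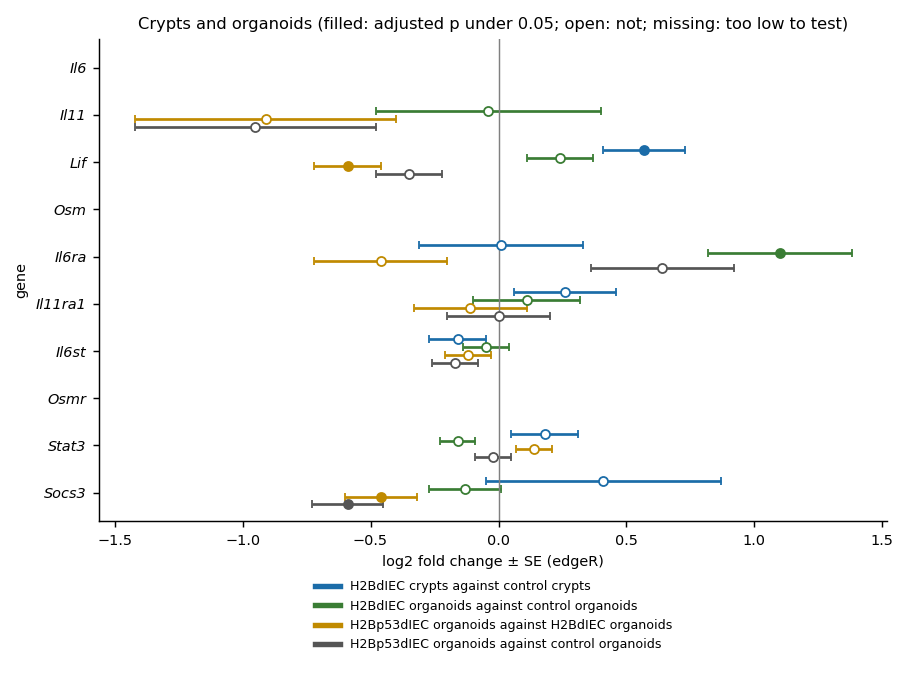
Log2 fold change (x axis) of the tested genes (rows) in the crypt comparison and the 3 organoid comparisons, with the SE as bars; filled points passed an adjusted p under 0.05, and Il6, Osm and Osmr (in crypts also Il11) were too low to test. The 5 filled points are Lif in crypts (0.57), Il6ra in H2BdIEC organoids (1.10), Lif (−0.59) and Socs3 (−0.46) in H2Bp53dIEC against H2BdIEC organoids, and Socs3 (−0.59) in H2Bp53dIEC against control organoids.

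Of the 16 negative regulators 2 rose and 4 fell in H2Bp53dIEC against control organoids, where 16.7% of all genes rose and 16.6% fell. With 1 library left out, 1 or 2 rose and 3 fell. Socs5 averaged 8.38 ± 1.57 CPM in H2Bp53dIEC and 20.8 ± 1.14 CPM in control organoids (SD, n = 3 each), a log2 fold change of −1.30 ± 0.13 (edgeR adjusted p = 1.45e-05), and Cish, the STAT5-induced family member, averaged 2.1 ± 0.22 CPM in H2Bp53dIEC and 6.64 ± 0.737 CPM in control organoids (SD, n = 3 each; edgeR adjusted p = 2.6e-05). Socs5 was higher in tumors than in adjacent tissue, by 1.02 on the log2 scale. Of 23 tested STAT3 targets 7 rose and 6 fell in H2Bp53dIEC against control organoids, with a median log2 fold change of 0.06. Reg3b averaged 27.5 ± 3.37 CPM in H2Bp53dIEC and 4.67 ± 1.01 CPM in control organoids (SD, n = 3 each; log2 fold change 2.56 ± 0.14, edgeR adjusted p = 1.94e-07), and Vegfa, an angiogenic factor, averaged 119 ± 6.24 CPM in H2Bp53dIEC and 284 ± 40.8 CPM in control organoids (SD, n = 3 each; log2 fold change −1.25 ± 0.10, edgeR adjusted p = 3.76e-06). In H2BdIEC against control organoids 3 targets rose (Reg3b, Reg3g and Icam1) and 1 fell (Vegfa), where 2.08% of all genes rose and 1.97% fell. With H2BdIEC A left out 5 rose and 2 fell, with H2BdIEC C left out 3 fell, and 0 fell without H2BdIEC B, control A or control B.

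Over the 8 groups the genes can be ordered by CPM per kilobase of exon, scaled over all 29 libraries together; crypts, tissue and organoids were prepared separately, and a difference between the sets cannot be told apart from their preparation. Il6 averaged 14.5 per kilobase in tumors, 0.12 in adjacent and 0.0241 in control tissue, and the ranges of these 3 groups did not overlap. Il11 averaged 24.2 per kilobase in tumors and between 0.0768 and 0.366 in the other 7 groups, all of whose neighbours overlapped. Osm averaged 11.1 per kilobase in tumors, 0.177 in adjacent and 0.0802 in control tissue, and 0 in organoids. Lif had the flattest order of the cytokine genes, 5.36 per kilobase in tumors, 2.54 in H2BdIEC organoids, 2.21 in control organoids and 1.12 in control tissue at the low end, with every neighbour overlapping the next.

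Of the receptor genes, Il6st was the highest per kilobase in every group: 8.51 in tumors, 9.53 in adjacent and 7.44 in control tissue, 4.37 in H2BdIEC and 4.91 in control crypts, and 3.55 to 4.02 in organoids. Il6ra fell into 3 tiers that did not overlap, 1.69 to 1.97 per kilobase in tissue, 0.254 to 0.256 in crypts and 0.0641 to 0.132 in organoids. Osmr averaged 3.1 per kilobase in tumors, 1.49 in adjacent and 0.532 in control tissue, and at most 0.0187 in crypts and organoids, below the lowest tissue group mean by a wide margin. Il11ra1 averaged 6.94 per kilobase in tumors, 2.37 to 2.87 in other tissue, 1.24 to 1.48 in crypts and 0.654 to 0.679 in organoids. Socs3 averaged 45.3 per kilobase in tumors, 20.4 in adjacent tissue, 11.3 in control tissue, 17.2 in H2BdIEC crypts, 13 in control crypts and 3.51 to 5.32 in organoids, and was separate from its neighbour only between H2BdIEC and H2Bp53dIEC organoids.

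Likeness of pattern was measured as the root mean square difference of centred log2 CPM over the 29 libraries, among 13281 protein-coding genes. It is a description with no test. The genes closest to Il6 were Cxcl3 (0.43), a neutrophil chemokine gene, then Osm (0.52) and Csf3 (0.65), where the median over all genes was 2.86. The gene closest to Osm was Il6, followed by Cxcl3 (0.70) and Bdkrb1 (0.72). Il11 had no gene as close, with Lpo at 0.88 and Vill and Rgs16 at 0.92. Closest to Osmr were Lrrc32 (0.53), Cdh5 (0.55), the endothelial cadherin, and Tmem119 (0.59), and closest to Socs3 were Bnip2 (0.55), Il4ra (0.57) and Ccrl2 (0.59). Lif was closest to Snx10 (0.40), Stat3 to Iscu (0.23), Il6ra to Syde1 (0.45) and Il11ra1 to Arhgef40 (0.33). Libraries of a set share their preparation, so the 29 points are not independent.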

How the data were processed

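RNA was measured in 8 crypt, 12 tissue and 9 organoid libraries. Per the labels, 500 ng of total RNA went into each library, by the TruSeq stranded mRNA kit. Per the submitters' processing notes, reads passed through TopHat2 2.0.14, HTSeq, Trimmomatic 0.36 and cutadapt 1.5 and 1.9 (roles and order not given), on GRCm38; their settings, the strand option and the annotation release are not given in the sources used here. The authors deposited unnormalized counts of reads for each Ensembl gene. The HTSeq summary lines of the crypt files were left out; reads outside genes made up 30.1 to 35% of the reads in genes, outside genes and ambiguous. Groups followed genotype, tissue and title in the labels.

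Crypts, tissue and organoids were fitted separately in edgeR 4.0.16 (R 4.3.3), with filterByExpr by group, TMM and the robust quasi-likelihood test on group means. Benjamini-Hochberg adjustment ran over every tested gene, with calls at 0.05. SEs were derived from the log2 fold change and the F statistic. The log2 CPM used for likeness and for the correlation of deviations had a prior count of 2. For the fold changes the prior count was left at edgeR's default. Symbols and exon lengths came from GENCODE M21. The fits were tested on simulated data with known changes. DESeq2 1.42.0, its size factors in edgeR, no low-count filter, only the groups compared, a replicate block and leaving out each library were tried as other settings. Leaving out control 1320 and adjacent 1323 together was added after seeing the data.

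Tumor and adjacent samples with the same number come from 1 mouse, so the mouse pairs them. The fit reported has group terms only and leaves this pairing out, and the replicate block takes it in. The correlation of their deviations from the group means, over 10077 genes, was 0.0285 (1319), 0.192 (1322), −0.18 (1323) and 0.17 (1349). The labels do not tie crypt or organoid libraries to separate animals or cultures, so p-values there cover the spread between libraries alone, and it may be technical. No pair of libraries within a group was identical. Depth per library limits precision most in control tissue 1320 and H2BdIEC organoids A.

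The 10 genes and the lists were chosen with earlier results of these data known. All 10 are named. A called gene is given library by library for at least 1 comparison that called it, and elsewhere at times only as a mean, range or fold change. Up to 4 members of a pathway list are named by smallest p. The 3 genes closest in pattern were sought for each gene with a mean of at least 1 CPM. List members named beyond that (all that fell, or all of a short count) were chosen after their values were seen. Results on 2 genes other than the 10 are not reported here.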

Additional observations from a re-analysis of the deposited data

Results flagged for a closer look

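In 49 groups of 4 libraries, the highest and the lowest value were compared with the others by Dixon's test (the gap to the nearest value over the range), and 4 stood apart; chance gives about 1 in 20. Il11ra1 was 51.3 CPM in the tumor of mouse 1322, against 22 to 27 CPM in the other 3 tumors, and this was the tumor with the lowest Il6, Il11, Lif, Osm and Socs3. Socs3 was 69.4 CPM in control tissue 1316, against 18.7 to 26.7 CPM in the other 3 control libraries. Il11 was 0 CPM in control tissue 1320, against 0.438 to 0.515 CPM in the others, and that library held 401365 gene counts. Il6 was 0.0379 CPM in control crypts 3, which is 1 read, against 0 in the other 3.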

How the results depend on the processing

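Of the values recomputed under the alternatives, 612 kept their direction and their side of the threshold, 12 passed it only under the alternative, 28 passed it only in the fit reported and 29 changed sign. The count of genes called in tumors was 5 to 7 against adjacent tissue and 7 against control tissue over the libraries left out, and Il6, Il11, Osm, Lif and Il11ra1 stayed called in tumors against adjacent tissue in the replicate block (6 calls in all; Osmr was lost and Socs3 gained). Other changes of count were 0 in crypts without the low-count filter (0 to 1 over the libraries left out), and 1 in adjacent against control tissue with DESeq2 and with only these groups fitted, where Il6 and Osm fell under the filter. In H2BdIEC against control organoids the count was 0 with DESeq2, without the filter, with only the 2 groups and in the replicate block by letter (Il6ra 1.12, adjusted p = 0.213), and 0 to 1 over the libraries left out. It was 1 to 2 in H2Bp53dIEC against H2BdIEC organoids. Against control organoids it was 2 with DESeq2 size factors, without the filter and with only the 2 groups, since Lif passed, and 1 to 2 over the libraries left out. Organoids with the same letter had deviations that correlated by 0.0502, −0.371 and 0.348. Tumor and adjacent samples of 1 mouse gave 0.0285, 0.192, −0.18 and 0.17. Such values therefore cannot tell whether a letter marks a shared origin. The cause of each change was not tested.

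None of the values that changed sign had passed the test in the fit reported. They were −0.03 for Il6ra in crypts without the filter, 0.00 for Il6ra in tumors against control tissue without control 1320 and adjacent 1323, 0.00 for Il11 in H2BdIEC organoids in the replicate block and −0.01 for Il11ra1 in H2Bp53dIEC against control organoids without the filter. Over the libraries left out, crypts gave −0.14 to 0.24 for Il6ra and −0.01 to 0.78 for Socs3. Tumors against adjacent tissue gave −0.73 to 0.03 for Il6ra and −0.02 to 0.09 for Stat3, and tumors against control tissue −0.54 to 0.09 for Il6ra and −0.07 to 0.23 for Il6st. Adjacent against control tissue gave −0.15 to 0.31 for Il6ra. H2BdIEC against control organoids gave −0.23 to 0.19 for Il11, −0.09 to 0.23 for Il11ra1 and −0.10 to 0.04 for Il6st. H2Bp53dIEC organoids gave −0.21 to 0.08 for Il11ra1 against H2BdIEC, and −0.10 to 0.16 for Il11ra1 and −0.06 to 0.02 for Stat3 against controls. With 1 library left out, 277 to 991 of all genes were higher and 201 to 848 lower in crypts, and 172 to 547 and 114 to 638 in H2BdIEC against control organoids. Depth limits the genes near or under 1 CPM: Il6, Il11 and Osm in every group other than tumors, Osmr in crypts and organoids, and Il6ra in organoids. In control tissue 1320 it also limits Lif, Osmr, Il11ra1, Socs3 and Il6ra, with 2, 2, 5, 7 and 9 reads.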
